A study of Mus musculus with 61 samples.

Results

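Sox30, Dlx3 and Nf2 are 3 of the 15149 genes measured by RNA-seq in sorted mouse retinal ganglion cell samples. They were chosen by name, for higher values in 3 libraries of DBA/2J mice at 9 months (libraries 26, 27 and 28) than in the 10 DBA/2J libraries at 4 months, so that contrast is given below as a description without a test. DBA/2J is an inbred strain that develops pigment-dispersing glaucoma with age, and D2-Gpnmb+ carries a working Gpnmb allele on the same background and serves as its control. The 61 libraries form 5 groups, which are DBA/2J at 4 months (10 libraries, water), DBA/2J at 9 months (25, water), DBA/2J at 9 months given nicotinamide at 500 mg/kg per day (7), D2-Gpnmb+ at 4 months (10, water) and D2-Gpnmb+ at 9 months (9, water). Cells were sorted as Thy1.2-positive and negative for Cd11b, Cd11c, Cd34, Cd45.2 and GFAP. They came from retinas of eyes without glaucomatous axon degeneration, so every 9-month group describes eyes without that degeneration. The series describes the D2-Gpnmb+ mice as matched for sex and age; no source used here says whether each library is a separate animal, so the tests below compare libraries, whose spread may be technical.

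Sox30 encodes an SRY-box transcription factor that is needed for the late steps of sperm formation. Dlx3 encodes a distal-less homeobox transcription factor of placenta, skin, hair and tooth. Nf2 encodes merlin, a membrane-linked FERM-domain tumour suppressor that acts upstream of the Hippo kinases, which restrain the growth-promoting co-activators YAP and TAZ.

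The values are read counts scaled by a size factor per library, called normalised read counts here, and total reads per library ran from 5133114 to 19501444. By the order of their columns the libraries fall into 3 stretches, called blocks here. Block 1 has 6 DBA/2J and 4 D2-Gpnmb+ libraries at 9 months, and block 2 has 16 and 2. Block 3 has all libraries of the 4-month and nicotinamide groups with the last 3 DBA/2J and the last 3 D2-Gpnmb+ libraries at 9 months. The labels do not say what the blocks are. Gpnmb itself, read as a check of the strain labels, had a median of 9.00 in DBA/2J at 4 months and of 93.2 in D2-Gpnmb+ at 4 months, with no overlap. At 9 months the medians were 26.5 and 44.3, and the ranges, 8.39 to 78.3 and 11.9 to 83.5, overlapped. Of 12 ganglion cell markers 9 were in the table, Pou4f2, Pou4f3 and Isl2 were not, and their summed level ran from 97.7 to 459.1. The sum of 12 rod markers ran from 722.03 to 72632, so the sorted samples also held RNA of other retinal cells. In such bulk samples fewer cells of a type and less RNA per cell cannot be told apart.

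All 3 genes lie on chromosome 11 (GRCm38, GENCODE M21), far apart. Sox30 (ENSMUSG00000040489.5) spans chr11:45980310-46017994 on the plus strand, with 2997 exonic bases in 1 transcript. Dlx3 (ENSMUSG00000001510.8) spans chr11:95120119-95125296 on the plus strand, with 2607 exonic bases in 1 transcript. Nf2 (ENSMUSG00000009073.16) spans chr11:4765845-4849536 on the minus strand, with 6825 exonic bases over 13 transcripts. Per kilobase of exon the mean level over the 61 libraries was 13.05 normalised read counts for Nf2, 4.34 for Sox30 and 1.73 for Dlx3, so merlin was the most abundant of the 3 transcripts and Dlx3 the least.

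The 250 bases upstream of the first listed start of Sox30 and of Nf2 are shown, from RefSeq on GRCm38.p6, so that the windows could be searched for shared motifs. A few libraries were high for both genes. Their levels were only weakly related in the DBA/2J 9-month libraries of block 2 (Pearson r = 0.264, permutation p = 0.319). Capitals mark CCAAT boxes, read here as ATTGG, the reverse complement of CCAAT.
Sox30, chr11:45980060-45980309, plus strand: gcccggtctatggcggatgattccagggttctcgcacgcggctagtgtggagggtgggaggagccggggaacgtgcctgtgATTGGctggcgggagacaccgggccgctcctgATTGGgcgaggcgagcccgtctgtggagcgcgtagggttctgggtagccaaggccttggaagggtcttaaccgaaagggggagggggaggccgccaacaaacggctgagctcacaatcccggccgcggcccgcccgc
Nf2, chr11:4849545-4849794, minus strand: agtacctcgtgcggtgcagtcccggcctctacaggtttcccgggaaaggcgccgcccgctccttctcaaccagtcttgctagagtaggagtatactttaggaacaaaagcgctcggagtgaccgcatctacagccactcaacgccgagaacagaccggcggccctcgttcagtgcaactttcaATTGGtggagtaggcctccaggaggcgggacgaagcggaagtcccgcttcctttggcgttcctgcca
The Sox30 window held the box at 169 and at 137 bases upstream of the start, and the Nf2 window held it at 67 bases upstream. CCAAT, searched for after the windows had been seen, is present in 33.8% of the 32851 RefSeq windows of this length. On both strands neither of these windows held the STAT motif TTCNNNGAA (7.02% of all windows), the AP-1 motif TGANTCA (6.75%), the TEAD motif GGAATG (12.6%), the SOX motif ACAATG (10.7%) or the homeobox motif TAATTA (4.84%). A second Nf2 start in the table, with a window at chr11:4833136-4833385, held TAATTA at 41 bases upstream. The GC content was 68.0% for Sox30 and 59.2% for Nf2, against a mean of 53.2% over all windows. Dlx3 was not among the windows.

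Dlx3 was close to undetected in most libraries and high in a few. In DBA/2J at 4 months the lowest, median and highest values were 0.105, 0.358 and 1.58, from 41 reads over all 10 libraries. In D2-Gpnmb+ at 4 months they were 0, 0 and 1.05, with 6 of 10 libraries at 0 and 11 reads in all. In D2-Gpnmb+ at 9 months they were 0, 0.165 and 3.65, with 4 of 9 libraries at 0. The highest value of these 3 groups was thus 3.65, and 7 of 25 DBA/2J 9-month libraries were above it.

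In DBA/2J at 9 months the lowest, median and highest Dlx3 values were 0, 0.511 and 101.6, and 4 of 25 libraries were at 0. In the nicotinamide group they were 0.424, 0.866 and 61.2. Over the series 14 libraries had no Dlx3 read, which at 3 reads allows a level of up to 0.169 to 0.646 depending on the library's depth. In order, the highest were DBA/2J 9-month library 26 (101.6, 524 reads), nicotinamide library 2 (61.2, 779 reads), and DBA/2J 9-month libraries 16 (40.1, 574 reads), 28 (17.01, 168 reads) and 14 (13.3, 178 reads). Below them came DBA/2J 9-month libraries 4 (5.67), 27 (5.49) and 3 (4.86), then D2-Gpnmb+ 9-month library 5 (3.65, 37 reads). The high libraries came from all 3 blocks, and the median of every group stayed under 1.

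Nf2 was readily detected in every library, from 304 to 4509 reads. Its lowest, median and highest values were 55.6, 61.2 and 84.0 in DBA/2J at 4 months. In D2-Gpnmb+ they were 57.5, 68.9 and 82.1 at 4 months and 61.1, 76.1 and 90.2 at 9 months. In DBA/2J at 9 months they were 66.4, 91.2 and 336.5, and under nicotinamide 47.4, 60.2 and 127.9. The 5 groups overlapped, and only DBA/2J at 9 months and the nicotinamide group had values above 100.

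The highest Nf2 values were those of DBA/2J 9-month libraries 14 (336.5), 16 (236.2), 26 (186.5), 17 (147.1) and 28 (143.1). Libraries 22 (136.9) and 3 (136.2) of that group and nicotinamide library 2 (127.9) followed. Libraries 17 and 22 had 1 and 0 Dlx3 reads, so a high Nf2 level did not always come with Dlx3. Against each group's mean, the spread was small in D2-Gpnmb+ at 9 months (75.9 ± 8.37, SD, n = 9) and wide in DBA/2J of that age (117.7 ± 60.2, SD, n = 25).

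Sox30 was detected in all 61 libraries, from 26 to 537 reads. In DBA/2J its lowest, median and highest values were 4.803, 6.71 and 9.84 at 4 months, 5.40, 15.6 and 37.6 at 9 months and 7.25, 14.3 and 42.2 under nicotinamide. In D2-Gpnmb+ they were 7.43, 11.04 and 16.2 at 4 months and 2.14, 8.90 and 15.7 at 9 months. Within DBA/2J the medians at 9 months were above the highest 4-month library, and in D2-Gpnmb+ the 9-month range held most of the 4-month range.

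The highest Sox30 values were those of nicotinamide library 2 (42.2) and of DBA/2J 9-month libraries 26 (37.6), 16 (30.3), 24 (30.2), 19 (25.4) and 14 (24.03). Library 24 had a single Dlx3 read. Libraries 28 and 27 had 19.8 and 15.6, rank 9 and 17 of the 61, and the latter is the median of its group.

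Sox30 also followed the blocks. In DBA/2J at 9 months its mean was 7.28 ± 1.87 (SD, n = 6) in block 1, 18.5 ± 6.75 (n = 16) in block 2 and 24.4 ± 11.7 (n = 3) in block 3. In D2-Gpnmb+ at 9 months the block means were 4.20 (n = 4), 11.2 (n = 2) and 13.3 (n = 3). Both strains were thus lowest in block 1. For Nf2 the DBA/2J 9-month means in blocks 1, 2 and 3 were 97.9, 120.9 and 139.7, lowest in block 1 as well, while the D2-Gpnmb+ means were 79.4, 78.9 and 69.2, highest there.

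By group means the order for Sox30 was nicotinamide (16.6 ± 11.7), DBA/2J at 9 months (16.5 ± 8.503), D2-Gpnmb+ at 4 months (11.5 ± 2.68), D2-Gpnmb+ at 9 months (8.79 ± 5.11) and DBA/2J at 4 months (6.99 ± 1.46). For Nf2 it was DBA/2J at 9 months (117.7 ± 60.2), D2-Gpnmb+ at 9 and 4 months (75.9 ± 8.37 and 70.0 ± 8.32), nicotinamide (67.6 ± 27.8) and DBA/2J at 4 months (63.3 ± 8.90). For Dlx3 it was nicotinamide (9.41 ± 22.8), DBA/2J at 9 months (7.89 ± 21.4), D2-Gpnmb+ at 9 months (0.601 ± 1.18) and DBA/2J and D2-Gpnmb+ at 4 months (0.493 ± 0.421 and 0.146 ± 0.324). Each pair of neighbours in these orders differed by less than the larger of its SDs.

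**Figure D1:**
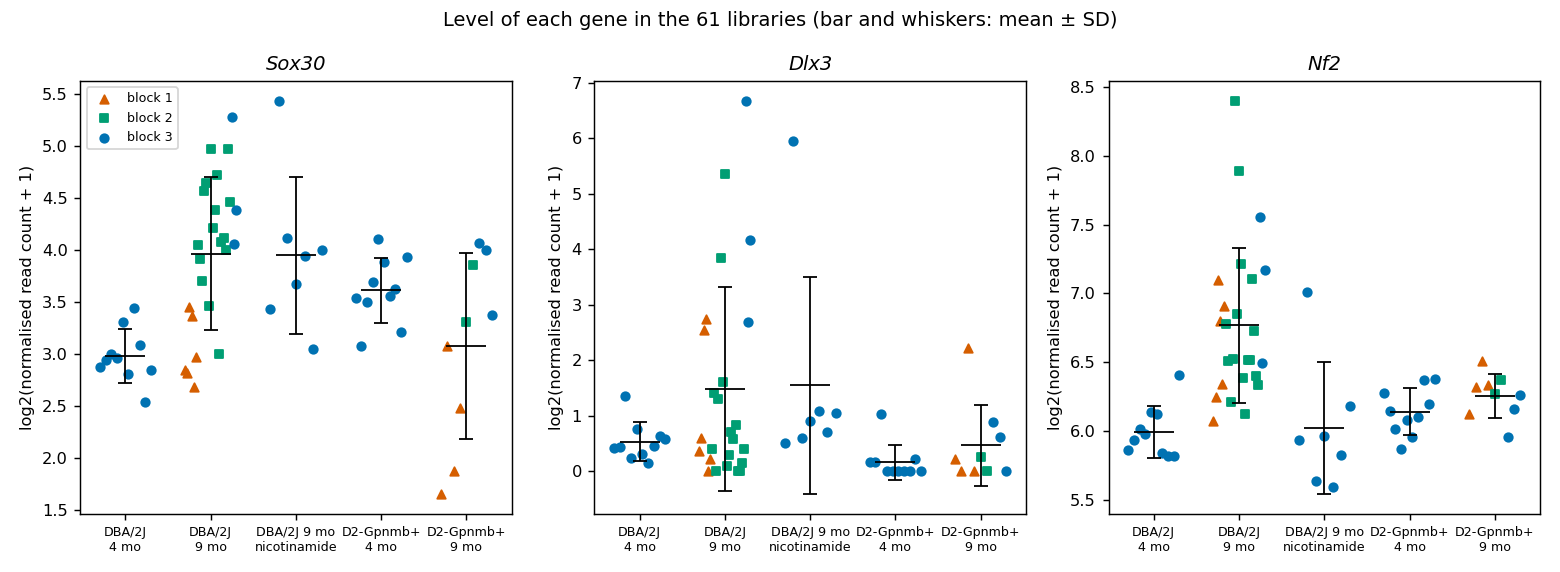
Level of Sox30, Dlx3 and Nf2, as log2(normalised read count + 1), in each of the 61 libraries by group, with the bar and whiskers at the mean ± SD of the log2 values and colour and shape marking the block. Dlx3 is near 0 in most libraries and reaches 101.6 in 1, Nf2 is spread widely in DBA/2J at 9 months, and Sox30 is lowest in block 1 within both 9-month water groups.

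The libraries that chose the genes set the following values, described without a test. In libraries 26, 27 and 28 Dlx3 was 101.6, 5.49 and 17.01, against a highest 4-month DBA/2J value of 1.58. Sox30 was 37.6, 15.6 and 19.8, against 9.84. Nf2 was 186.5, 89.4 and 143.1, against 84.0. The lowest chosen library was thus above the highest 4-month library by 3.91 for Dlx3, 5.78 for Sox30 and 5.38 for Nf2, a small gap for Nf2. The ratio of the 2 means was 83.9 for Dlx3, 3.48 for Sox30 and 2.21 for Nf2. As differences of mean log2(normalised read count + 1) within block 3 these were 3.98, 1.59 and 1.08, and 36 of 13670 genes (0.263%) passed an adjusted p of 0.05 there by limma, 0.417% by edgeR and 1.92% by DESeq2.

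Over all 25 DBA/2J libraries at 9 months, the difference from 4 months on that log2 scale was 0.98 for Sox30, 0.94 for Dlx3 and 0.77 for Nf2. Above all 10 of the 4-month libraries were 19 of 25 for Sox30, 17 for Nf2 and 9 for Dlx3. In this pooled contrast 22.4% of 13587 genes passed the threshold, 9.25% higher at 9 months and 13.2% lower, and all blocks 1 and 2 libraries are on its 9-month side. Dlx3 was thus the gene whose difference depended most on the libraries taken, from 0.94 pooled to 3.98 in block 3.

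Strain was compared at 9 months with libraries 26, 27 and 28 left out, so that this test shares no DBA/2J library with the choice of genes. With 22 DBA/2J libraries against 9 of D2-Gpnmb+, Sox30 was 15.5 ± 7.72 against 8.79 ± 5.11, a log2 difference of 0.80 ± 0.29 (SE), and missed the threshold (limma, adjusted p = 0.170, over 13658 genes). Nf2 was 114.7 ± 61.96 against 75.9 ± 8.37, a log2 difference of 0.47 ± 0.19, and missed it as well (limma, adjusted p = 0.218). Neither gene was called, against 0.901% of all genes tested by limma (0.476% higher and 0.425% lower in DBA/2J), 1.35% by edgeR and 3.57% by DESeq2. The unadjusted limma p-values were 0.00871 for Sox30 and 0.0164 for Nf2.

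In that comparison 10 of 22 DBA/2J libraries were above all 9 control libraries for Sox30 and 13 of 22 for Nf2. For Dlx3 it was 4 of 22. Dlx3 did not pass the filter on low values, since 8 libraries reached 1 where 9 were needed. Its means were 3.32 ± 8.75 and 0.601 ± 1.18, and an exact permutation test of its log2 difference of 0.60 gave p = 0.244 (two-sided, unadjusted). Within blocks 1 and 2, with block as a term, the log2 differences were 0.69 for Sox30 and 0.34 for Nf2.

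Age in the control strain involved none of the DBA/2J libraries. From 4 to 9 months in D2-Gpnmb+, Sox30 went from 11.5 ± 2.68 (SD, n = 10) to 8.79 ± 5.11 (n = 9), a log2 difference of -0.54 ± 0.28 (limma, adjusted p = 0.197). Nf2 went from 70.0 ± 8.32 to 75.9 ± 8.37, a log2 difference of 0.12 ± 0.10 (limma, adjusted p = 0.425). Dlx3 reached 1 in only 2 of the 19 libraries and was not in the fit, and its log2 difference of 0.31 gave p = 0.269 (exact permutation test, two-sided, unadjusted). Neither Sox30 nor Nf2 was called, against 0.0232% of 12910 genes by limma (3 genes, with 3917 under an unadjusted p of 0.05), 11.6% by edgeR and 16.4% by DESeq2.

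The control strain's direction for Sox30 depended on the block. Within block 3, where 3 D2-Gpnmb+ libraries at 9 months stand with the 10 at 4 months, the log2 difference was 0.20 for Sox30 and -0.01 for Nf2. Scaling by total reads instead shifted the median of all genes in this comparison from -0.00 to 0.31, and on that scale the log2 difference was 0.47 for Nf2 and -0.23 for Sox30.

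Nicotinamide-treated DBA/2J mice were compared with D2-Gpnmb+ at 9 months, again without the libraries that chose the genes. Sox30 was 16.6 ± 11.7 (SD, n = 7) against 8.79 ± 5.11 (n = 9), a log2 difference of 0.87 ± 0.39 (limma, adjusted p = 0.148). Without nicotinamide library 2 the Sox30 difference was 0.62, and within block 3 it was 0.14. Nf2 was 67.6 ± 27.8 against 75.9 ± 8.37, a log2 difference of -0.23 ± 0.17 (limma, adjusted p = 0.341). Without library 2 the Nf2 difference was -0.40, and within block 3 it was -0.10. Block 3 holds all 7 nicotinamide libraries but only 3 of the 9 D2-Gpnmb+ libraries.

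Dlx3 was 9.41 ± 22.8 under nicotinamide against 0.601 ± 1.18, with 4 of 16 libraries at 1 or more, a log2 difference of 1.08 and p = 0.0929 (exact permutation test, two-sided, unadjusted). In this comparison limma called 0% of 13054 genes, with 3838 under an unadjusted p of 0.05, while edgeR on the recovered reads called 8.17% and DESeq2 called 16%. For Nf2 1 of 7 nicotinamide libraries, library 2, was above all 9 control libraries and 4 of 7 were below the lowest of them. Neither Sox30 nor Nf2 passed the threshold by any of these tools in the 3 tested comparisons, and Dlx3 did not enter those fits.

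The remaining contrasts each share one side with the contrast that chose the genes and are given as descriptions. At 4 months the DBA/2J level minus the D2-Gpnmb+ level on the log2 scale was -0.63 ± 0.14 (SE) for Sox30, 0.38 ± 0.15 for Dlx3 and -0.15 ± 0.09 for Nf2, where limma called 0.25% of 12804 genes. For Sox30 7 of 10 DBA/2J libraries were then below every D2-Gpnmb+ library. At 9 months the nicotinamide level minus the water level in DBA/2J was -0.02 ± 0.30 for Sox30, 0.07 ± 0.75 for Dlx3 and -0.74 ± 0.22 for Nf2, where 15.1% of 13925 genes were called. For Nf2 5 of 7 nicotinamide libraries were below all 25 water libraries. All nicotinamide libraries are in block 3 and 22 of 25 water libraries are not, so block and treatment overlap in that contrast.

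**Figure D2:**
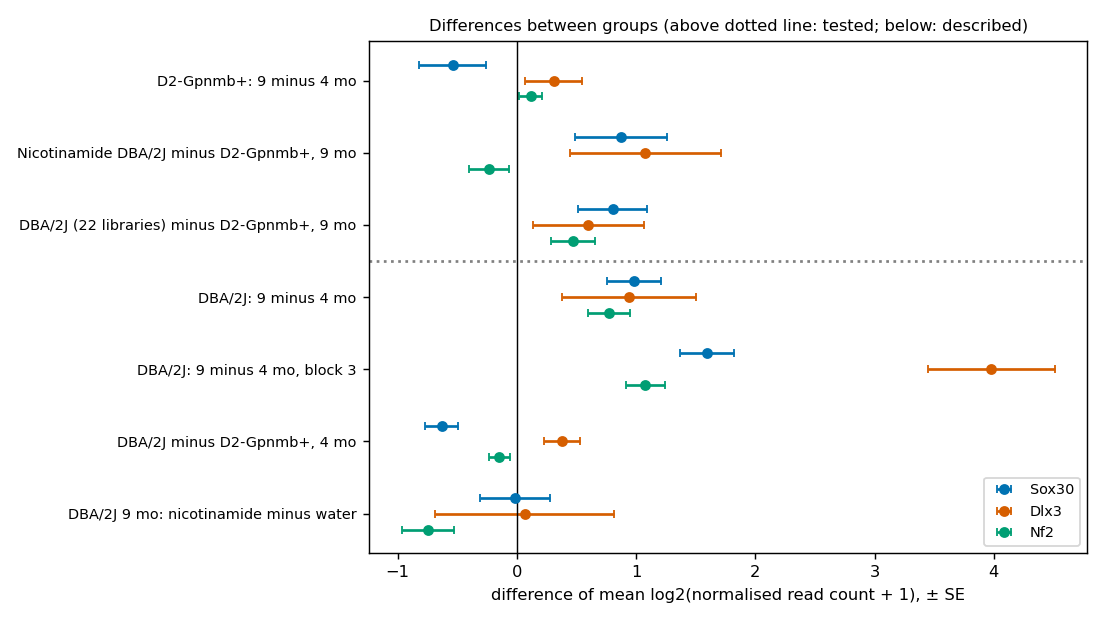
Difference between group means of log2(normalised read count + 1) with its standard error for Sox30, Dlx3 and Nf2 in 7 comparisons. The upper 3, tested, lie between -0.54 and 1.08, and the block 3 age difference of Dlx3 at 3.98 is the farthest from 0.

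The same few libraries were high for more than 1 of the 3 genes, and this was tested within the 16 DBA/2J 9-month libraries of block 2. Dlx3 and Nf2 had a Pearson r of 0.752 (permutation p = 0.00699, adjusted 0.021 over 3 pairs) and a Spearman rho of 0.304 (permutation p = 0.251). Without libraries 14 and 16, the 2 farthest from the median of Dlx3, r was -0.10, so the relation rested on those libraries. Sox30 and Dlx3 had r = 0.371 (permutation p = 0.157, adjusted 0.235) and rho = 0.215 (permutation p = 0.418). Sox30 and Nf2 had r = 0.264 (permutation p = 0.319, adjusted 0.319) and rho = 0.0735 (permutation p = 0.789).

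The same 3 pairs were read in 4 further groups, 12 relations in all, and none passed an adjusted p of 0.05. The largest were between Sox30 and Dlx3 in the 6 DBA/2J libraries of block 1 (r = 0.951, exact permutation p = 0.0292, adjusted 0.175; rho = 0.714, exact permutation p = 0.136) and between Dlx3 and Nf2 in the 7 nicotinamide libraries (r = 0.911, exact permutation p = 0.0528, adjusted 0.211; rho = 0.357, exact permutation p = 0.444). Without the 2 libraries farthest from the median these r were 0.342 and 0.352. In the 4-month groups r ran from -0.336 to 0.213. The rho farthest from 0 had the opposite sign, between Sox30 and Dlx3 in the 10 D2-Gpnmb+ libraries at 4 months (rho = -0.792, permutation p = 0.0105, adjusted 0.126; r = -0.336, permutation p = 0.371), where Dlx3 had 0 to 7 reads.

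**Figure D3:**
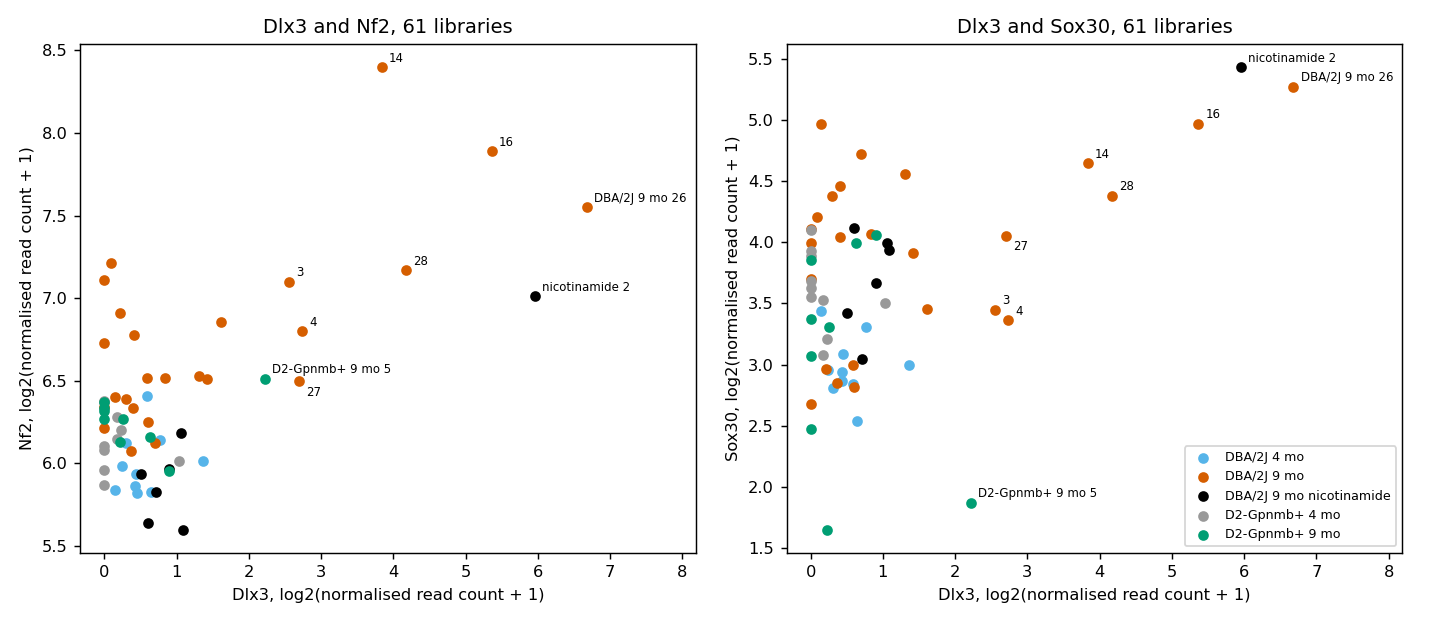
Dlx3 against Nf2 (left) and against Sox30 (right) in the 61 libraries, each as log2(normalised read count + 1), coloured by group, with numbers marking DBA/2J 9-month libraries unless another group is written. Most libraries lie at a Dlx3 level under 1, and libraries 26, 16, 28 and 14 of DBA/2J at 9 months and nicotinamide library 2 are high for all 3 genes.

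Other genes followed the same libraries. By Pearson r of the log2 values over all 61 libraries, given as a description since libraries share depth and cell make-up, the genes most like Dlx3 were Prph (0.87), A2m (0.85), Slit3 (0.82), Serpina3n (0.77), Fscn1 (0.76), Stat3 (0.74), Nelfcd (0.72) and H2-Q5 (0.71). Those most like Nf2 were Nelfcd (0.80), Slit3 (0.76), Cd63 (0.74), Sdk2, Atp8a1, Stat3 (0.71), Gadd45b and Prph (0.70). Nelfcd, Prph, Slit3 and Stat3 stood in both of these sets of 8. Those most like Sox30 were Agtpbp1 (0.82), Scg5 (0.76), Itsn2, H3f3a, Lrrc2, Stx3, 2010107E04Rik and Trak2, none of which was in the other 2 sets.

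Prph encodes peripherin, an intermediate filament of peripheral neurons that is also induced after nerve injury. Prph was 50.4, 3.69 and 6.18 in DBA/2J 9-month libraries 26, 27 and 28, 29.4 in nicotinamide library 2, and 10.3 and 11.5 in libraries 16 and 14, against a median of 0.203 in DBA/2J at 4 months. Stat3, a cytokine-activated transcription factor, was 222.6, 89.1 and 163.3 in libraries 26, 27 and 28, 206.9 in nicotinamide library 2, and 174.9 and 201.6 in libraries 16 and 14, against a 4-month DBA/2J median of 39.4. Agtpbp1, an enzyme that trims glutamates from tubulin tails, was 976.5 in library 26 and 544.2 in nicotinamide library 2, against 272.4 and 310.3 in libraries 27 and 28 and a 4-month DBA/2J median of 230.0.

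Within the 33 libraries of block 3 the likeness of Dlx3 was to Prph (0.97), Serpina3n (0.94), A2m (0.93), Slit3 (0.92), Lad1, Stat3 (0.91), Nlrc5 and Sec22c, that of Nf2 to Lynx1 (0.90), Gria1 (0.88), Gsk3b, Ccl17, Prph (0.85), Osbpl6, Fam78b and Stat3 (0.84), and that of Sox30 to Edn2 (0.83), Agtpbp1 (0.81), A2m (0.78), Lad1, Slit3 (0.76), Cnnm4, H2-Q5 and Irf9. The sets over all libraries and in block 3 draw on libraries 26, 27 and 28, which chose the 3 genes.

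Sets from the 16 DBA/2J 9-month libraries of block 2, which hold none of those 3, lie outside the rule for named genes and were added after the values were seen. There the genes most like Dlx3 were A2m (0.92), Kitl (0.87), Serpina3n (0.84), Fscn1 (0.83), Mcl1, Mfsd4, Ikzf4 and Nelfcd (0.80). Those most like Nf2 were Nipal2 (0.90), Smap2 (0.89), 2210408I21Rik, E2f3, Mfng, BC004004, Slc25a44 and Mmd, and those most like Sox30 were Sart1 (0.82), Ypel2 (0.80), Atpbd4, Tmed9, Phb2, Agtpbp1 (0.78), Ppp2r2b and Pacsin2. In block 2 no gene stood in more than 1 set, and Prph, Slit3 and Stat3 stood in none. Among 13239 genes there Nf2 ranked 26 in likeness to Dlx3 (r = 0.75) and Sox30 ranked 2165 (r = 0.37), against rank 20 (r = 0.65) and rank 87 (r = 0.48) over all libraries.

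Marker levels of other cell types differed among the high libraries. The summed level of 12 Müller glia and astrocyte markers was 310.1 in DBA/2J 9-month library 26, the lowest of the 61, 1485 and 1436 in libraries 27 and 28, 1403 and 1623 in libraries 16 and 14, and 1235 in nicotinamide library 2. Over the groups that sum ran from 1314 to 4573 in DBA/2J at 4 months, 310.1 to 8387 at 9 months, 1235 to 2728 under nicotinamide, and 1764 to 3906 and 1569 to 16280 in D2-Gpnmb+ at 4 and 9 months. Of the high libraries, 26 and nicotinamide library 2 were below the 4-month DBA/2J range and libraries 27, 28, 16 and 14 were in its lower part. D2-Gpnmb+ 9-month library 5, the highest of its group for Dlx3 and Nf2, had a sum of 11590, and DBA/2J 9-month library 3, also high for both, had 6060. The part of glial RNA in the 3 genes' levels was not tested.

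The sum of 12 microglia and macrophage markers was highest of all in library 16 (268.7) and was 114.5 in library 14, but only 6.59, 6.01 and 1.72 in libraries 26, 27 and 28 and 2.98 in nicotinamide library 2, within the 4-month DBA/2J range of 1.55 to 6.58 for all but the first of these. Over the other groups it ran from 1.72 to 268.7 in DBA/2J at 9 months, 2.31 to 3.94 under nicotinamide, and 1.93 to 8.27 and 0.564 to 12.1 in D2-Gpnmb+ at 4 and 9 months. The ganglion cell sum in libraries 26, 27 and 28 was 219.1, 288.6 and 350.0, against 288.7 to 459.1 in DBA/2J at 4 months.

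**Figure D4:**
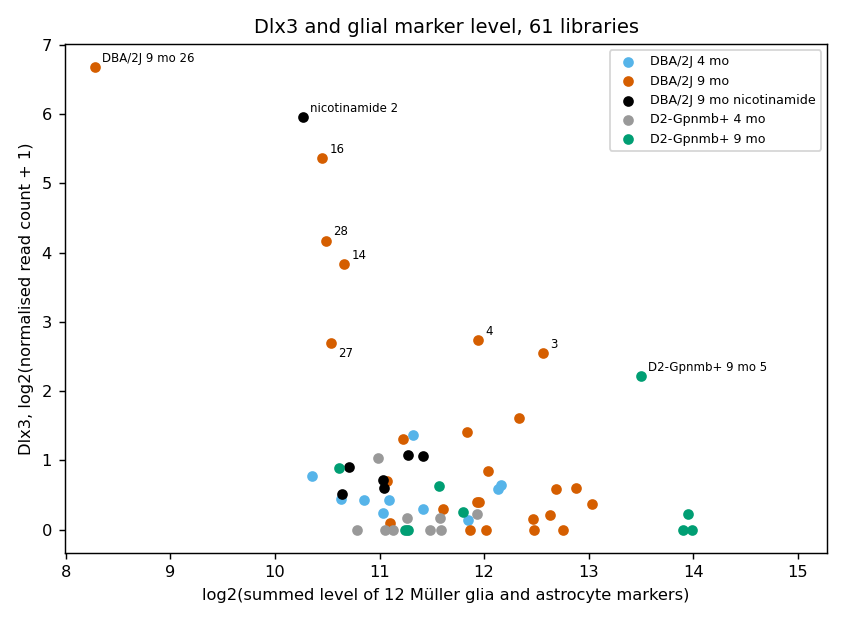
Dlx3, as log2(normalised read count + 1), against the log2 of the summed level of 12 Müller glia and astrocyte markers in the 61 libraries, coloured by group. The 5 libraries with the highest Dlx3 had glial sums of 310.1 to 1623, while D2-Gpnmb+ 9-month library 5, with Dlx3 at 3.65, had 11590.

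Markers of cells known to express Sox30 or Dlx3 were also summed. Of 14 male germ cell markers 3 were in the table (Sycp1, Sycp3 and Ldhc), and their sum was 12.4, 8.44 and 6.88 in libraries 26, 27 and 28, within the 4-month DBA/2J range of 5.14 to 16.6. Of 14 surface epithelium markers 5 were in the table (Krt1, Krt10, Trp63, Sfn and Perp), while Krt5, Krt14 and Krt12 were not. Their sum was 13.2, 13.7 and 11.8 in libraries 26, 27 and 28, within the 4-month DBA/2J range of 11.7 to 21.6. Over all groups the germ cell sum ran from 2.78 to 21.8 and the epithelial sum from 5.89 to 30.3. The part of such cells in the Sox30 and Dlx3 levels was not tested.

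The measured genes nearest to each of the 3 on the chromosome were also read, and genes without values here were passed over. Beside Dlx3, the nearest measured gene on the lower side was Itga3, an integrin subunit 43.3 kb away. Its mean was 30.8 in libraries 26, 27 and 28 and 18.3 in DBA/2J at 4 months (r with Dlx3 0.50 over 61 libraries). Tac4, the nearest measured gene on the other side at 136.2 kb, was at 0.515 and 0.849. Pdk2, Samd14, Kat7 and Fam117a had r between -0.23 and 0.35. Beside Nf2, Zmat5 at 20.0 kb was 6.29 and 3.03 (r 0.52) and Nipsnap1 at 24.4 kb was 6.91 and 8.19. Uqcr10 at 53.3 kb was 17.4 and 14.6 (r 0.54) and Nefh at 89.2 kb was 9.72 and 6.81 (r -0.27), while Ascc2 and Thoc5 had r of 0.19 and -0.27. Beside Sox30, Thg1l at 23.6 kb was 3.60 and 2.36, Lsm11 at 34.1 kb was 26.9 and 14.7 (r 0.61), and Adam19 at 36.5 kb was 1.66 and 2.26. Clint1, Cyfip2 and Fndc9 had r with Sox30 between -0.03 and 0.26.

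The families and partners of the 3 genes were read from lists. Of 19 other Sox genes 13 were in the table, of 15 Dlx and related homeobox genes 4 (among them Six3, Six6 and Pax6, and no other Dlx gene), of 28 Hippo pathway genes 27, of 17 YAP and TAZ targets 16, and of 19 FERM proteins and their partners 19. In D2-Gpnmb+ with age and between nicotinamide-treated DBA/2J and D2-Gpnmb+, limma called none of them. By unadjusted p under 0.05 those were, with age, 7 of 10 tested Sox genes, 1 of 4 homeobox genes, 12 of 26 Hippo genes, 9 of 15 targets and 9 of 19 FERM genes, against 30.3% of all genes. There edgeR called 5, 0, 8, 8 and 4 of them, against 11.6% of all genes, and DESeq2 6, 0, 12, 9 and 5, against 16.4%. In the nicotinamide comparison they were 6 of 9, 0 of 4, 12 of 25, 9 of 15 and 12 of 19, against 29.4% of all genes. There edgeR called 3, 0, 4, 6 and 3, against 8.17%, and DESeq2 5, 0, 9, 8 and 5, against 16%.

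The median log2 difference with age in D2-Gpnmb+ was 0.78 for the Sox list, 0.15 for the homeobox list, 0.35 for the Hippo list, 0.71 for the targets and 0.22 for the FERM list, against -0.00 over all genes, and for the glial markers it was 1.30. For nicotinamide-treated DBA/2J minus D2-Gpnmb+ the medians were -0.86, 0.03, -0.29, -0.88 and -0.28, against 0.01 over all genes, with -1.59 for the glial markers. The part of glial RNA in these medians was not tested. Examples were Sox9 and Myof. Sox9, a transcription factor of Müller glia also on the glial list, was 77.5 ± 57.4 (SD) in D2-Gpnmb+ at 9 months. It was 28.5 ± 8.24 there at 4 months and 22.5 ± 5.20 under nicotinamide. Myof, a target that encodes a membrane-repair ferlin, was 39.0 ± 36.2 and 6.61 ± 2.32 in D2-Gpnmb+ at 9 and 4 months. All 4-month and nicotinamide libraries are in block 3, with only 3 of the 9 D2-Gpnmb+ 9-month libraries. Block and group thus overlap in these medians and examples.

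Between the strains at 9 months without libraries 26, 27 and 28, Pax6, a homeobox regulator of retinal cell fate, was lower in DBA/2J, at 47.4 ± 21.7 (SD) against 90.1 ± 31.3 (log2 difference -0.98, limma, adjusted p = 0.0460). That call held in 12 of 31 fits that left out 1 library (limma, adjusted p from 0.0264 to 0.124) and was lost with total-reads scaling (0.0895) and with block as a term in blocks 1 and 2 (0.208), while the log2 difference stayed between -1.09 and -0.89. In the same comparison the rod markers had a median log2 difference of 1.36, with 12 of 12 under an unadjusted p of 0.05, and the microglia and macrophage markers 1.64, with 10 of 11, of which limma called 2. The part of these cells in the Pax6 value was not tested. Six3 was 50.2 against 87.2 (limma, adjusted p = 0.0581). No other list gene was called by limma. Under an unadjusted p of 0.05 were 2 of 11 Sox genes, 3 of 4 homeobox genes, 2 of 26 Hippo genes, 0 of 15 targets and 2 of 19 FERM genes, against 14.3% of all genes. edgeR called 1 homeobox gene and DESeq2 called 2, against 1.35% and 3.57% of all genes, and neither called a gene of the other 4 lists. The medians were -0.47, -0.67, -0.18, -0.32 and -0.14 for the 5 lists in the order above, against -0.03 over all genes.

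In DBA/2J from 4 to 9 months, with all blocks pooled, 3 of 27 Hippo pathway genes rose and 5 fell, where 9.25% of all genes were called higher and 13.2% lower. Tead3, a DNA-binding partner of YAP, rose from 1.51 to 3.68, Yap1 itself from 7.78 to 16.1, and Sav1, a scaffold of the Hippo kinases, from 13.6 to 19.8. Among those that fell, Stk4, a Hippo kinase, went from 39.3 to 29.6, and Taok1, a kinase above it, from 522.6 to 381.5. Of 16 YAP and TAZ targets 5 rose and 1 fell, read against the same shares of 9.25% and 13.2%. Cyr61, a matricellular protein, rose from 1.02 to 8.96 (log2 difference 2.05, limma, adjusted p = 8.51e-05), Ctgf, its relative, from 7.24 to 19.4, and Gadd45b, a stress-induced gene, from 1.99 to 5.74. The rise of Ctgf depended on the blocks pooled. Within block 3 alone its 9-month mean was 5.49, below its 4-month mean (log2 difference -0.59). Gadd45b was at 7.75 there, above its 4-month mean (log2 difference 1.38). F3, another target called higher in the pooled contrast, was at 2.89 in block 3, below its 4-month mean of 4.52 (log2 difference -0.48). Within block 3 limma called none of the 16 targets, Cyr61 included, where 0.263% of all genes were called.

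Of 19 FERM genes 5 rose and 5 fell, where 22.4% of all genes were called in either direction, among them Cd44, a membrane partner of merlin, which rose from 36.0 to 72.8, and Frmd5, which fell from 64.1 to 24.6. Of 4 homeobox genes Pax6 fell from 107.5 to 46.2, Six3 from 88.9 to 50.8 and Six6 from 52.5 to 38.8. Of 11 Sox genes Sox6 rose from 19.4 to 32.4 while Sox11 fell from 3.22 to 0.924 and Sox4 from 1.71 to 0.847. The medians of the Sox, homeobox, Hippo, target and FERM lists were 0.48, -0.70, -0.01, 0.24 and 0.26, against 0.02 over all genes, and for the glial markers 0.75, with 4 of 12 called higher. In the same contrast the microglia and macrophage markers had a median of 1.49, with 10 of 11 called higher, and the rod markers 1.04, with 4 of 12 called higher. The part of these cells in the list counts was not tested.

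Within block 3, where limma called 0.263% of all genes, it called no gene of the 5 lists, with 4 of 12, 2 of 4, 1 of 27, 1 of 16 and 1 of 19 under an unadjusted p of 0.05 in the same order, against 10.7% of all genes. edgeR called none there, against 0.417% of all genes, and DESeq2 called 1 homeobox gene, 1 Hippo gene and 1 target, against 1.92%. The list medians were -0.50, -0.48, -0.11, -0.03 and -0.11, against -0.00 over all genes, and -1.38 for the glial markers.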

How the data were processed

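RNA of sorted mouse retinal cells was sequenced in 61 libraries. Per the submitters' processing notes, TopHat2 2.0.7, Bowtie2 2.0.6, HTSeq and mm10 were used, and parameters and strandedness are not given in the sources used here. The deposited table holds a normalised signal per gene, that is, read counts divided by a size factor per library. Whole reads were recovered from its steps for 100% of values within 0.05, giving 5133114 to 19501444 reads per library. Columns were matched to groups, not to single samples, and 22 names turned into dates were left out of 15171 rows.

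The 3 genes, the gene lists and the 3 blocks were chosen with earlier results of these data known. limma 3.58.1 (R 4.3.3; trended, robust) was fitted to log2(signal + 1) over all genes with a value of 1 or more in at least as many libraries as the smaller group, with Benjamini-Hochberg adjustment and a threshold of 0.05; fold changes on this scale understate changes of low genes. edgeR 4.0.16 and DESeq2 1.42.0 were run on the recovered reads. Alternatives were a pseudocount of 0.5, no filter, total-reads scaling, block as a term, block 3 alone, and leaving out libraries. Correlation p-values used 100000 permutations or exact enumeration, two-sided. Scripts were tested on simulated data. Named genes were the 3 genes, the list genes with the smallest p or an adjusted p under 0.05, the nearest 3 measured genes on each side, and the 8 genes with the highest r among those with a mean of at least 1. Markers of rods, bipolar cells, endothelial cells and pericytes, and pigment cells were also summed. The bipolar sum ran from 2587 to 11233, the endothelial and pericyte sum from 144.2 to 1662, and the sum of 4 of 10 pigment cell markers from 4.89 to 29.5. The values of 1 list gene are not reported here. Floors of 3 reads cover counting error only.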

Additional observations from a re-analysis of the deposited data

Results flagged for a closer look

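A library was singled out where its gap to the next one, divided by the range of its group of 4 to 10 libraries, passed Dixon's 95% critical value. In all 18 groups of values were examined, some of them parts of others, and 8 were singled out. The nominal rate of about 1 in 20 assumes normally distributed values. Dlx3 values near 0 are not so distributed, so the 8 cannot be read against that rate. Nicotinamide library 2 stood apart for all 3 genes, with Sox30 at 42.2 (next 16.3), Dlx3 at 61.2 (next 1.12) and Nf2 at 127.9 (next 71.6). Dlx3 in D2-Gpnmb+ 9-month library 5 was 3.65, apart both in its group (next 0.863) and within block 1 (next 0.165). Dlx3 was 1.58 in DBA/2J 4-month library 3 (next 0.703) and 1.05 in D2-Gpnmb+ 4-month library 3 (next 0.168). Nf2 was 84.0 in DBA/2J 4-month library 10 (next 69.6).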

How the results depend on the processing

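Sox30 and Nf2 missed the threshold under every alternative run in the 3 tested comparisons, and Dlx3 in every fit that held it. The counts of all genes called moved widely. For D2-Gpnmb+ with age the count was 3 with limma, 0 with total-reads scaling, with block as a term and within block 3 (also without libraries 13, 14 or 15 there), 1495 with edgeR and 2114 with DESeq2. For nicotinamide against D2-Gpnmb+ it was 0, with 2 under total-reads scaling, 1 with block as a term, 40 within block 3 (3, 3 and 309 without D2-Gpnmb+ libraries 13, 14 and 15), 1067 with edgeR and 2083 with DESeq2. For strain it was 123, with 29 under total-reads scaling, 2 with block as a term in blocks 1 and 2, 185 with edgeR and 487 with DESeq2.

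Leaving out 1 library at a time gave 0 to 2069 genes for age (2069, 1065, 1208 and 1010 without D2-Gpnmb+ 9-month libraries 13, 14, 15 and 9), 0 to 1537 for nicotinamide (between 184 and 1537 without library 8, 9, 13 or 15) and 3 to 211 for strain (3 without library 1 or 4, 6 without 14, 211 without 9). Sox30 then ran from -0.66 to -0.36, 0.62 to 1.02 and 0.63 to 0.93 in these comparisons, and Nf2 from 0.08 to 0.15, -0.40 to -0.16 and 0.39 to 0.50. Dlx3 ran from 0.54 to 0.65 in the 8 strain fits that held it.

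With block as a term or within block 3 the D2-Gpnmb+ age difference turned to 0.20 for Sox30 and -0.014 for Nf2. Without libraries 13, 14 and 15 there it was 0.072, 0.11 and 0.42 for Sox30, and without 14 and 15 it was -0.030 and -0.083 for Nf2. The nicotinamide difference of Sox30 was -0.082 within block 3 without library 15. In DBA/2J with age Dlx3 moved to 3.98 within block 3 (2.90, 4.89 and 4.15 without libraries 26, 27 and 28), and Sox30 and Nf2 to 1.85 and 1.37 without 27. Pooled, without 26, 27 or 28 in turn, Sox30 ran from 0.93 to 0.98, Dlx3 from 0.73 to 0.89 and Nf2 from 0.74 to 0.78. The r of Dlx3 and Nf2 was -0.10 without the 2 farthest libraries. The cause was not tested in any of these. The fits that leave out 1 library at a time from a whole comparison, the total-reads correlations and the correlations in other groups were added after seeing the data. No paired analysis was possible because the column numbers match no label that ties libraries across groups. Dlx3 had 1 to 12 reads per 4-month DBA/2J library.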
